A study of Saccharomyces cerevisiae with 4 samples.

Results

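The genes of sterol and isoprenoid synthesis in Saccharomyces cerevisiae were followed as a set of 31 genes, of 5493 genes in all that had at least 1 probe inside them. A member gene was one whose symbol or systematic name the array annotation gave to a probe placed inside a gene, and 155 of the 30279 inside probes belonged to the set. None of those 155 probes was also listed for a further gene. The measurement was RNA polymerase II occupancy by chromatin immunoprecipitation on tiling arrays of 60-base probes spaced about 290 bp apart. Both strains were S288c yeast carrying a TAP tag, a protein A affinity tag caught on IgG beads, either on Rpb3, a core subunit of the polymerase, or on Rpb4, a subunit of its dissociable stalk. Both were grown in rich YPD medium at 25 °C to log phase and crosslinked with 1% formaldehyde for 20 min. The samples were 2 arrays for Rpb3-TAP and 2 for Rpb4-TAP, and each array set immunoprecipitated DNA (IP, Cy5) against whole-cell extract DNA (WCE, Cy3) of the same strain. No untagged strain and no swapped dyes were among the arrays analysed. The labels do not say whether replicate arrays came from separate cultures, so p-values measure the spread between these arrays, which may be technical.

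Ergosterol is the main sterol of the yeast plasma membrane, and its synthesis begins with the joining of acetyl-CoA units. The early steps, the mevalonate pathway, make the isoprenoid farnesyl pyrophosphate, which also feeds ubiquinone, dolichol, haem A and protein prenylation. Squalene synthase commits farnesyl pyrophosphate to sterols, squalene is oxidised and closed into lanosterol, and the late steps remove methyl groups from lanosterol and rearrange its double bonds. Several of these steps consume oxygen and some depend on haem as a cofactor, and the zinc-cluster factors Upc2 and Ecm22 activate many ERG genes when sterols are low.

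Occupancy of a gene is given throughout as the mean over its inside probes of log2(IP/WCE), set to 0 at each array's median probe, so 0 is not absence of polymerase. Levels were tested against 0 and against each other with limma over 5490 genes measured on all arrays, with Benjamini-Hochberg adjustment at 0.05. Errors marked SE come from that fit, which pools the spread of both groups. Across the set the arrays of a group lay close: the median gap between replicate values was 0.09 for Rpb3 and 0.06 for Rpb4, against 0.14 and 0.03 over all genes. The widest gap in the set was 0.41, at ERG12 with Rpb3. IP foreground exceeded its background 72.9 to 126 times and WCE foreground 151 to 168 times. Precision is limited by the number of arrays. Sheared fragments averaged 400 to 500 bp, which is longer than the probe spacing, so a probe near the end of a gene also collects fragments from the next gene.

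Most of the set was occupied above the median probe in log phase. With Rpb3, 23 of 31 genes were called above 0, where 38.4% of all genes were, and 2 were called below, where 29.2% were. With Rpb4, 19 of 31 were above, against 37.9% of all genes, and 2 were below, against 25.8%. The median gene of the set stood at 0.68 with Rpb3 and 0.36 with Rpb4, and the medians over all genes were 0.03 and 0.05. Leaving out either Rpb4 array lowered the number called above 0 with Rpb4 and ended the calls below 0 with Rpb4.

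**Figure D1:**
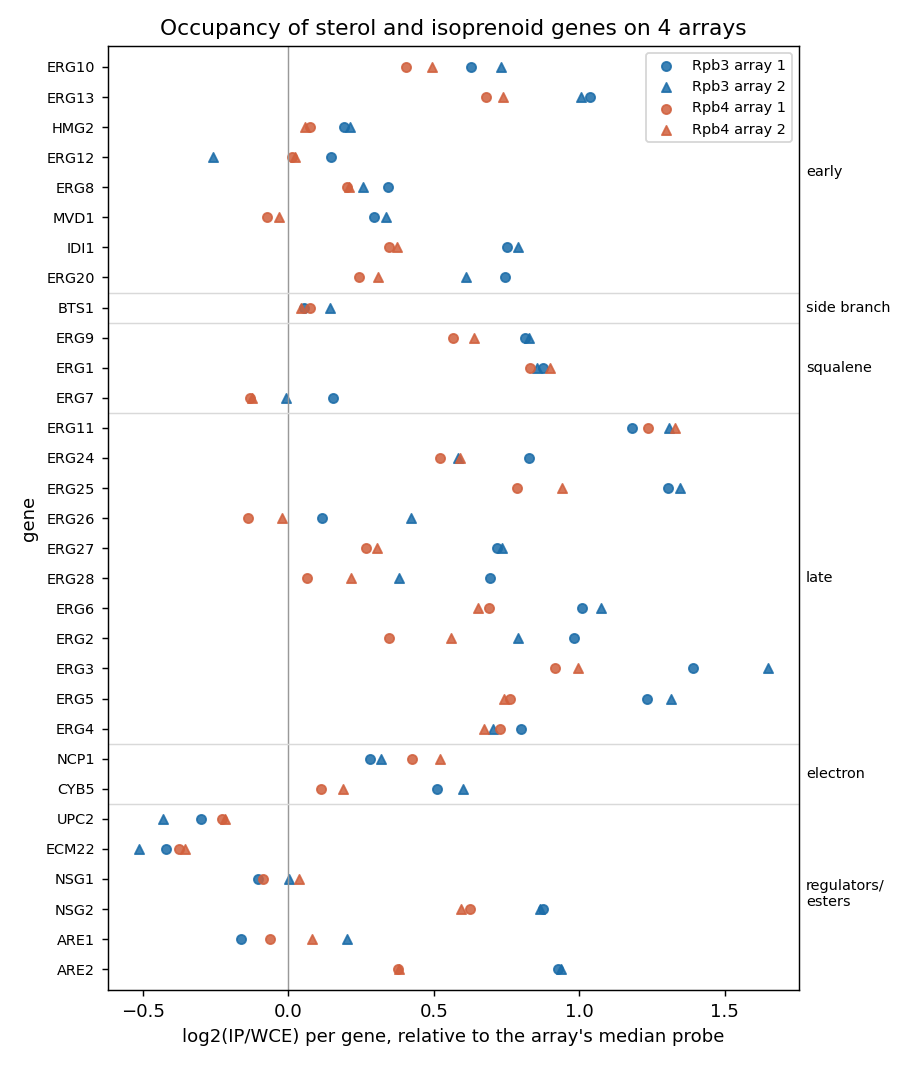
Occupancy of each of the 31 genes on the 4 arrays, as mean log2(IP/WCE) over inside probes relative to the array's median probe (horizontal axis), with genes ordered by pathway step (vertical axis) and 1 point per array. The late-step genes ERG3, ERG25, ERG5 and ERG11 lie farthest to the right, and UPC2 and ECM22 lie below 0 on every array, a side they leave when 0 is set at meiosis genes.

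The early steps held levels from the median probe up to about 1 log2 unit. ERG13, the HMG-CoA synthase gene, was the highest of them, at 1.04 and 1.01 on the Rpb3 arrays and 0.68 and 0.74 on the Rpb4 arrays. ERG10, which encodes the thiolase of the first step, stood at 0.63 and 0.73 on the Rpb3 arrays and 0.40 and 0.49 on the Rpb4 arrays. Both genes were called above 0 with either subunit, and the groups of arrays did not overlap at either. IDI1, the isopentenyl diphosphate isomerase gene, stood at 0.75 and 0.79 on the Rpb3 arrays and 0.35 and 0.37 on the Rpb4 arrays. ERG20, which encodes farnesyl pyrophosphate synthase, was at 0.74 and 0.61 on the Rpb3 arrays and 0.24 and 0.31 on the Rpb4 arrays. At these 2 genes both Rpb4 arrays lay below both Rpb3 arrays, and all levels were called above 0.

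The kinase and decarboxylase genes in the middle of the mevalonate pathway were lower. ERG8, the phosphomevalonate kinase gene, was at 0.34 and 0.26 on the Rpb3 arrays and 0.20 and 0.21 on the Rpb4 arrays. MVD1, encoding mevalonate pyrophosphate decarboxylase, was at 0.29 and 0.34 on the Rpb3 arrays and -0.074 and -0.034 on the Rpb4 arrays. MVD1 was called above 0 with Rpb3 and not with Rpb4, and its arrays of the 2 groups were on opposite sides of 0. ERG12, the mevalonate kinase gene, was at 0.15 and -0.26 on the Rpb3 arrays and 0.014 and 0.022 on the Rpb4 arrays, so its Rpb3 arrays fell on both sides of 0 and no level was called. HMG2, which encodes 1 of 2 HMG-CoA reductases, was at 0.19 and 0.21 on the Rpb3 arrays and 0.075 and 0.057 on the Rpb4 arrays, and only its Rpb3 level was called. BTS1, encoding geranylgeranyl diphosphate synthase on a side branch, was at 0.054 and 0.14 on the Rpb3 arrays and 0.073 and 0.042 on the Rpb4 arrays, with neither level called.

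The squalene steps split into 2 well occupied genes and 1 near the median probe. ERG9, the squalene synthase gene, was at 0.81 and 0.83 on the Rpb3 arrays and 0.56 and 0.64 on the Rpb4 arrays. ERG1, encoding squalene epoxidase, the target of terbinafine, was at 0.87 and 0.85 on the Rpb3 arrays and 0.83 and 0.90 on the Rpb4 arrays. The arrays of the 2 groups did not overlap at ERG9 and did at ERG1. ERG7, the lanosterol synthase gene that follows directly, was at 0.15 and -0.009 on the Rpb3 arrays and -0.13 and -0.13 on the Rpb4 arrays, and neither level was called.

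Late sterol genes included the highest levels of the set. ERG3, encoding a sterol desaturase, was at 1.39 and 1.65 on the Rpb3 arrays and 0.92 and 0.99 on the Rpb4 arrays, which ranked its Rpb3 mean 287th of 5490 genes. ERG25, the gene for the methyl sterol oxidase of demethylation, was at 1.30 and 1.35 on the Rpb3 arrays and 0.79 and 0.94 on the Rpb4 arrays. ERG5, the gene for the other cytochrome P450 of the pathway, a desaturase of the side chain, was at 1.23 and 1.32 on the Rpb3 arrays and 0.76 and 0.74 on the Rpb4 arrays. All 3 had both Rpb4 arrays below both Rpb3 arrays. ERG11, encoding the lanosterol demethylase that azole drugs inhibit, was at 1.18 and 1.31 on the Rpb3 arrays and 1.24 and 1.33 on the Rpb4 arrays. Its groups overlapped, and its Rpb4 mean was the highest of the set, at rank 270.

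The partners of Erg25 in the demethylation complex were less occupied than ERG25 itself. ERG27, the keto-reductase gene, was at 0.72 and 0.73 on the Rpb3 arrays and 0.27 and 0.30 on the Rpb4 arrays. ERG26, the dehydrogenase gene, was at 0.12 and 0.42 on the Rpb3 arrays and -0.14 and -0.023 on the Rpb4 arrays, with neither level called. ERG28, which encodes the scaffold of the complex, was at 0.69 and 0.38 on the Rpb3 arrays and 0.063 and 0.22 on the Rpb4 arrays over 2 probes. In all 3 genes the Rpb4 arrays lay below the Rpb3 arrays, and the Rpb3 replicates were wide apart at ERG26 and ERG28.

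Among the other late genes, ERG6, encoding the sterol methyltransferase that sets fungal sterols apart from cholesterol, was at 1.01 and 1.08 on the Rpb3 arrays and 0.69 and 0.65 on the Rpb4 arrays. ERG2, the sterol isomerase gene, was at 0.98 and 0.79 on the Rpb3 arrays and 0.35 and 0.56 on the Rpb4 arrays over 2 probes. Both genes had groups that did not overlap. ERG24, encoding the sterol reductase that acts after Erg11, was at 0.83 and 0.58 on the Rpb3 arrays and 0.52 and 0.59 on the Rpb4 arrays. ERG4, the gene for the last reductase of the pathway, was at 0.80 and 0.70 on the Rpb3 arrays and 0.73 and 0.67 on the Rpb4 arrays. The groups of arrays overlapped at these last 2 genes.

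The 2 electron donor genes lay on different sides between the strains, and neither difference was called. NCP1, which encodes the reductase that serves the P450 enzymes, was at 0.28 and 0.32 on the Rpb3 arrays and 0.42 and 0.52 on the Rpb4 arrays. CYB5, the gene for cytochrome b5, which can also pass electrons to the desaturases, was at 0.51 and 0.60 on the Rpb3 arrays and 0.11 and 0.19 on the Rpb4 arrays over 2 probes. NCP1 was 1 of 3 genes of the set with both Rpb4 arrays above both Rpb3 arrays, with UPC2 and ECM22, a pattern that 31.8% of all genes had.

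The regulators and the esterifying enzymes ranged widely and included the lowest levels of the set, at UPC2 and ECM22. UPC2 was at -0.30 and -0.43 on the Rpb3 arrays and -0.23 and -0.22 on the Rpb4 arrays. ECM22 was at -0.42 and -0.51 on the Rpb3 arrays and -0.38 and -0.36 on the Rpb4 arrays. These 2 genes were called below 0 with both subunits, and at no other gene of the set was a level called below; with 0 set at meiosis genes instead, both genes turned to positive values (UPC2 0.16 and ECM22 0.057 with Rpb3). The insulin-induced gene homologues, which bind and stabilise Hmg2, differed: NSG2 was at 0.88 and 0.87 on the Rpb3 arrays and 0.62 and 0.59 on the Rpb4 arrays, and NSG1 was at -0.11 and 0.002 on the Rpb3 arrays and -0.087 and 0.036 on the Rpb4 arrays over 2 probes. The sterol acyltransferases, which store sterol as esters, differed likewise: ARE2 was at 0.93 and 0.94 on the Rpb3 arrays and 0.38 and 0.38 on the Rpb4 arrays, and ARE1 was at -0.16 and 0.20 on the Rpb3 arrays and -0.062 and 0.079 on the Rpb4 arrays.

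Within each of these duplicated pairs the order was the same on every array. ARE2 exceeded ARE1 by 1.09 and 0.74 on the Rpb3 arrays and by 0.44 and 0.30 on the Rpb4 arrays. NSG2 exceeded NSG1 by 0.98 and 0.86, and by 0.71 and 0.56. HMG1, the other HMG-CoA reductase gene and no member of the set, exceeded HMG2 by 0.38 and 0.33, and by 0.09 and 0.07. In these 3 pairs the gap was smaller on both Rpb4 arrays than on both Rpb3 arrays. UPC2 exceeded ECM22 by 0.12 and 0.08, and by 0.15 and 0.14.

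Set against each other, the early steps lay below the late steps. The class median of the 8 early genes was 0.48 and 0.47 on the Rpb3 arrays and 0.22 and 0.26 on the Rpb4 arrays. That of the 11 late genes was 0.98 and 0.79, and 0.69 and 0.65. The early median was thus lower on 4 of 4 arrays, by a mean of -0.41 ± 0.13 (SD, n = 2) with Rpb3 and -0.43 ± 0.05 (SD, n = 2) with Rpb4. No test was made, since genes are not replicates. The distance between class medians was similar in both strains although both classes were lower with Rpb4. That similarity depended on the measure. With means over genes the distance was -0.45 with Rpb3 and -0.34 with Rpb4. Under quantile normalization the medians gave -0.37 with Rpb3 and -0.48 with Rpb4. The 3 squalene and lanosterol genes had class medians of 0.81 and 0.83, and 0.56 and 0.64. The 6 regulator and ester genes had medians of -0.13 and 0.10, and -0.07 and 0.06, which left the late steps above them by 0.90 ± 0.30 (SD, n = 2) with Rpb3 and 0.68 ± 0.12 (SD, n = 2) with Rpb4.

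The direct comparison of the tagged subunits ran mostly 1 way. Of the 31 genes, 25 had a lower mean with Rpb4 than with Rpb3, against 46.4% of all genes. The median difference, Rpb4 minus Rpb3, was -0.23 for the set and 0.01 over all genes. Its size depended on the scale of the arrays. The median absolute deviation was 0.46 on the second Rpb3 array and 0.33 on each other array. With arrays scaled to the same deviation the medians were -0.16 for the set and 0.02 over all genes. Under quantile normalization they were -0.12 and 0.04. Both Rpb4 arrays lay below both Rpb3 arrays at 20 of 31 genes, where 28.7% of all genes did so. Fewer genes passed the adjusted test: 4 were called lower with Rpb4, against 2.51% of all genes, and 0 were called higher, against 0.929%. At an unadjusted p under 0.05 there were 17 genes of the set, all lower, and 1198 genes in all.

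**Figure D2:**
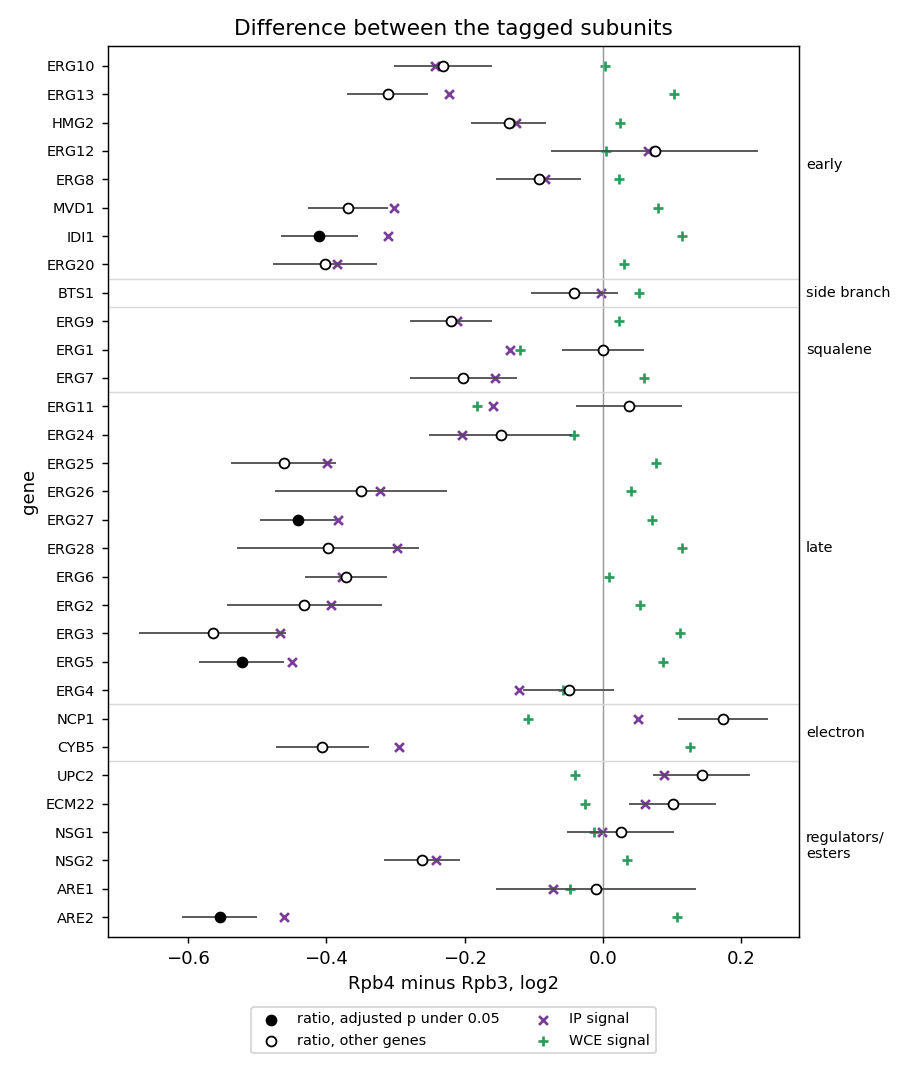
Rpb4 minus Rpb3 for each gene (horizontal axis, log2), with genes ordered by pathway step (vertical axis). Circles are the difference of log2(IP/WCE) with its SE from the limma fit, filled where the adjusted p was under 0.05, and crosses and plus signs are the same difference in the IP and the WCE channel alone. The 4 filled circles are IDI1, ERG27, ERG5 and ARE2, and 25 of 31 circles lie left of 0.

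The 4 genes called lower came from 3 classes. ARE2 (YNR019W) on chromosome 14, with probes from 665318 to 667084, had the lowest adjusted p of the set: its mean was -0.55 ± 0.054 (SE, adjusted p = 0.0234), which is a ratio 1.47 times higher with Rpb3. ERG5 (YMR015C) on chromosome 13, from 300893 to 302238, differed by -0.52 ± 0.062 (SE, adjusted p = 0.0339), or 1.44 times. ERG27 (YLR100W) on chromosome 12, from 341794 to 342791, differed by -0.44 ± 0.056 (SE, adjusted p = 0.0393), or 1.36 times. IDI1 (YPL117C) on chromosome 16, from 327964 to 328576, differed by -0.41 ± 0.056 (SE, adjusted p = 0.046), or 1.33 times. Each of these regions is the part of the coding gene that inside probes cover, in the coordinates of the array files, whose genome build is not given in the sources used here.

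These 4 calls did not hold everywhere. Leaving out either Rpb4 array ended the calls. Leaving out either Rpb3 array raised the number called lower, since the spread then came wholly from the Rpb4 pair. That number rose over all genes too. Scaling the arrays to the same median absolute deviation left 0 calls, and centring on meiosis genes left 1, ARE2. Quantile normalization ended the calls of ERG5, ERG27 and IDI1, and medians over probes those of ERG27 and IDI1. The direction did not change at any of the 4 genes under any alternative run.

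Some of the larger differences were not called. ERG3 differed by -0.56 ± 0.11 (SE, adjusted p = 0.0816), the largest estimate of the set. ERG25 differed by -0.46 ± 0.076 (SE, adjusted p = 0.0634). CYB5 differed by -0.41 ± 0.067 (SE, adjusted p = 0.0634). These 3 genes had groups that did not overlap, as had MVD1, which differed by -0.37 ± 0.057 (SE, adjusted p = 0.0581).

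Near 0 stood a few strongly occupied genes. ERG11 differed by 0.038 ± 0.076 (SE, adjusted p = 0.782). ERG1 differed by -0.00033 ± 0.059 (SE, adjusted p = 0.998). ERG4 differed by -0.050 ± 0.066 (SE, adjusted p = 0.661). A missed threshold at these 3 genes does not show equal occupancy. The largest positive estimate, which was not called, was at NCP1, with 0.17 ± 0.065 (SE, adjusted p = 0.234).

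By class, the median difference was -0.27 over the early genes, -0.20 over the squalene genes, -0.40 over the late genes and 0.01 over the regulator and ester genes. The number of genes with both Rpb4 arrays below both Rpb3 arrays was 7 of 8 early genes, 2 of 3 squalene genes, 8 of 11 late genes and 2 of 6 regulator and ester genes. Highly occupied genes were lower with Rpb4 across the genome too, so level was set beside the difference, with all genes cut by mean level into 5 equal bins. In the highest bin the median difference was -0.14 over 1098 genes and -0.34 over the 16 genes of the set there. In the next bin it was 0.00145 over all and -0.40 over 5 genes of the set. In the middle bin it was 0.04 over all and -0.09 over 8 genes of the set, and the 2 in the lowest bin were UPC2 and ECM22. The part of level in the difference was not tested.

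Single probes showed the same tilt. Of 155 inside probes of the set, 111 were lower with Rpb4, or 71.6%, against 44.0% of all inside probes. All 8 probes of ARE2 were lower with Rpb4, by 0.14 to 0.93 on the log2 scale. All 6 of ERG5 were lower, by 0.37 to 0.72. All 8 of ERG7 were lower too, by 0.03 to 0.45, although that gene was not called. In ERG11 only 2 of 7 probes were lower, those nearest the gene start, and in NCP1 3 of 9 were.

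**Figure D3:**
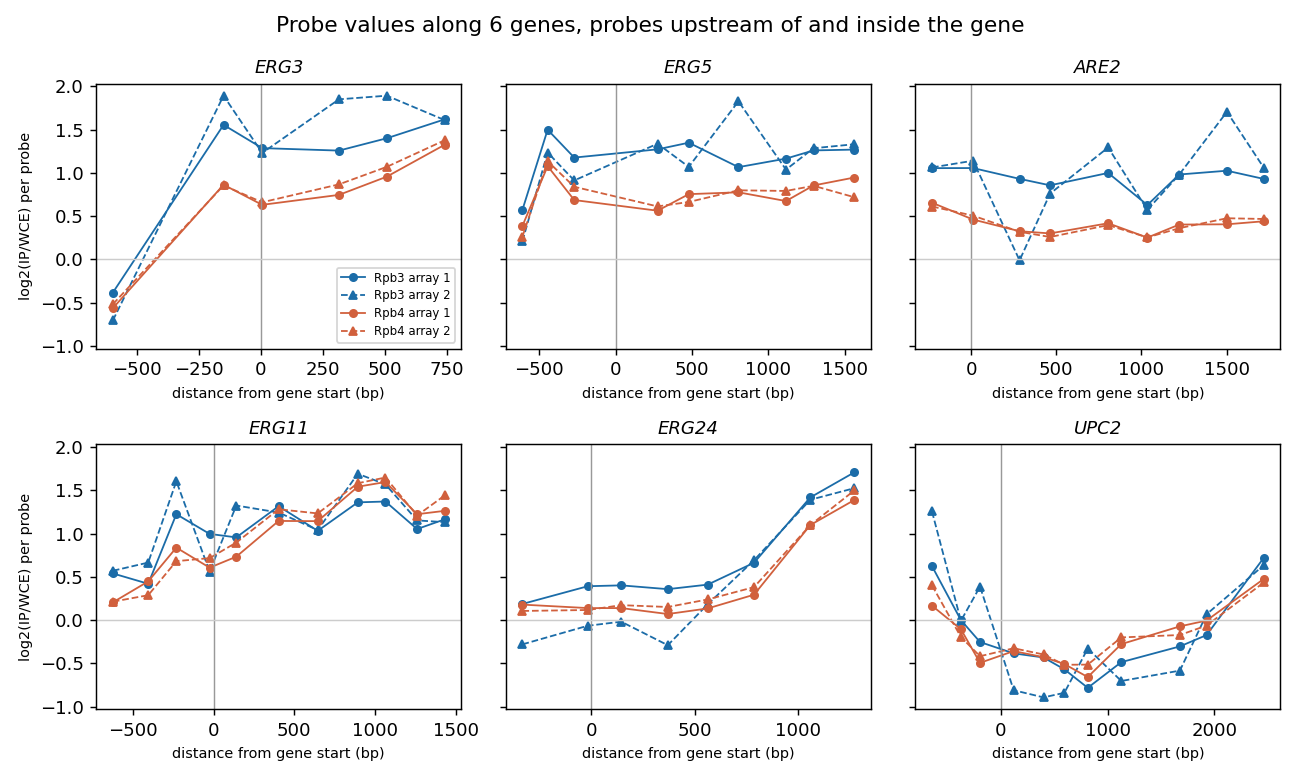
Probe values of log2(IP/WCE) relative to the array's median probe (vertical axis) against distance from the gene start in bp (horizontal axis) for 6 genes on the 4 arrays, for probes upstream of and inside each gene. The Rpb4 lines run below the Rpb3 lines inside ERG3, ERG5 and ARE2, except at 1 probe of ARE2 on the second Rpb3 array, lie together with them along ERG11, and rise with them towards the end of ERG24 and UPC2.

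The IP and WCE channels were compared apart to see where a difference of the ratio lay. In the IP channel 27 of 31 genes were lower with Rpb4, against 51.1% of all genes, with a median of -0.22. In the WCE channel the median was 0.03. There 22 of 31 genes were higher with Rpb4 and 9 lower, where 46.9% of all genes were lower. The channels moved in opposite directions at 24 of 31 genes, or 77.4%, against 53.5% of all genes. Called genes were few: 1 gene, ERG20, was lower in the IP channel, where 2.97% of all genes were, and 0 were higher, against 0.492%. The IP call was lost with medians over probes and when either Rpb4 array was left out, and quantile normalization gave 6 genes. Leaving out either Rpb3 array raised the number called in IP, which was not set beside all genes. In the WCE channel 0 were higher, against 3.32%, and 0 lower, against 5.54%. At an unadjusted p under 0.05 limma gave 17 of 31 genes of the set for IP, against 1183 of 5490 genes in all, and 6 for WCE, against 1425.

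At the 4 genes called on the ratio the IP channel carried the larger share. ARE2 differed by -0.46 in IP and by 0.11 in WCE. ERG5 differed by -0.45 and 0.09, ERG27 by -0.38 and 0.07, and IDI1 by -0.31 and 0.11. None of these single-channel values passed the adjusted test. At ERG11 both channels were lower with Rpb4, by -0.16 and -0.18, and at ERG1 by -0.13 and -0.12, so that the ratio stood near 0.

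Promoter probes, those the array annotation places upstream of a gene or between divergent genes, were assigned to 29 of the 31 genes, all but ERG13 and ERG27. The annotation also lists upstream probes for ERG13 (-1499 and -1320 bp) and ERG27 (-868 and -638 bp). These were not assigned to the 2 genes. Probes between divergent genes count for both neighbours. Promoter values were lower with Rpb4 at most genes of the array: the median difference was -0.18 over 5221 genes and 78.9% were below 0. For the set the median was -0.32 and 26 of 29 were below 0. Both Rpb4 arrays lay below both Rpb3 arrays at 23 of 29 promoters, where 60.0% of all genes showed this, and above at 0, against 6.74%. The adjusted test called 4 lower, against 4.71% of all genes, and 0 higher, against 0.287%; at an unadjusted p under 0.05 it gave 15 of the 29, all lower, against 1810 of 5221 genes in all.

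**Figure D4:**
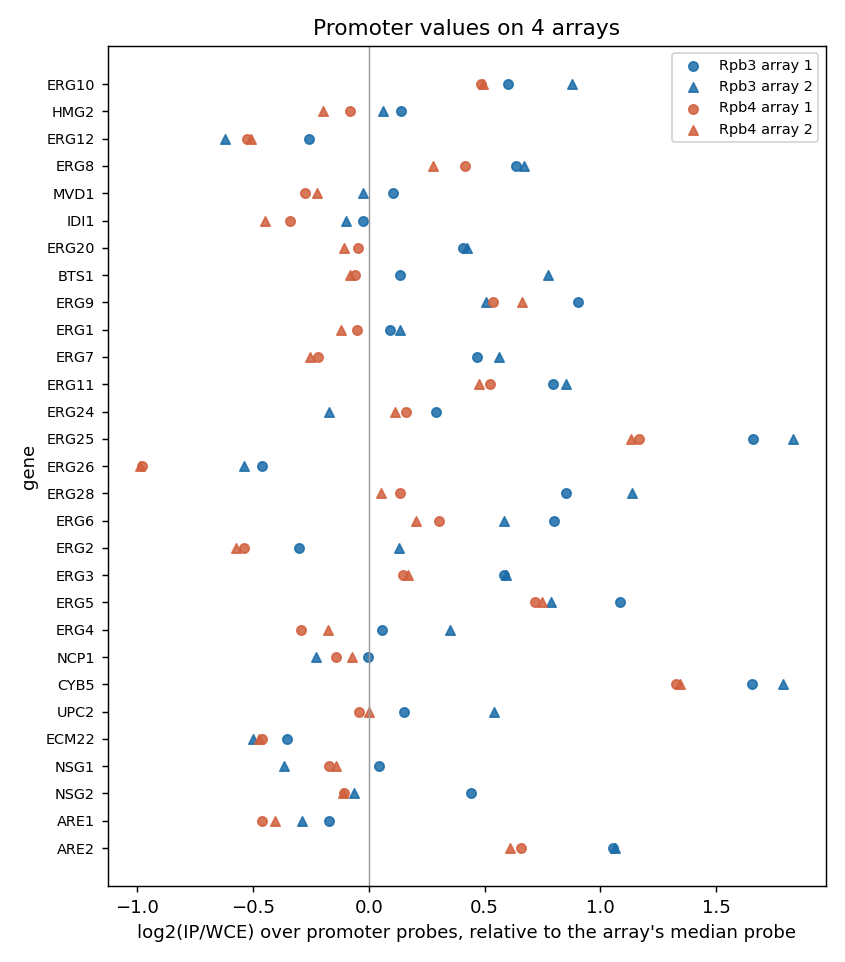
Mean log2(IP/WCE) over promoter probes of 29 genes on the 4 arrays, relative to the array's median probe (horizontal axis), with genes in pathway order (vertical axis). CYB5 and ERG25 lie farthest to the right, ERG25 partly through probes over 1000 bp upstream. At 23 of 29 genes both Rpb4 points lie left of both Rpb3 points.

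The 4 promoters called lower were those of ERG28, ERG7, ERG25 and ERG20. ERG28, with 1 promoter probe, was at 0.85 and 1.14 on the Rpb3 arrays and 0.14 and 0.052 on the Rpb4 arrays, a difference of -0.90 ± 0.13 (SE, adjusted p = 0.0446). ERG25 was at 1.66 and 1.83 on the Rpb3 arrays and 1.17 and 1.13 on the Rpb4 arrays, a difference of -0.60 ± 0.098 (SE, adjusted p = 0.0491). Part of that level came from far probes: those at -1219 and -1053 bp averaged 3.13 and 2.63 with Rpb3. With probes limited to 1000 bp, a choice made after these values were seen, ERG25 was at 1.15 and 1.20 on the Rpb3 arrays. On the Rpb4 arrays it was then at 0.64 and 0.63. ERG20 was at 0.41 and 0.43 on the Rpb3 arrays and -0.046 and -0.11 on the Rpb4 arrays, a difference of -0.49 ± 0.081 (SE, adjusted p = 0.0491). The promoter mean of ERG20 was thus above 0 on both Rpb3 arrays and below 0 on both Rpb4 arrays. All 3 of its promoter probes are shared with SET2. With Rpb3 they averaged 0.44 at -578 bp, -0.17 at -228 bp and 0.98 at -34 bp.

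ERG7 was at 0.47 and 0.56 on the Rpb3 arrays and -0.22 and -0.25 on the Rpb4 arrays, a difference of -0.75 ± 0.085 (SE, adjusted p = 0.0398), and 2 of its 6 promoter probes decided that value. Those probes lie at -1322 and -1102 bp from the gene start, on the side of PCL5, a cyclin gene whose inside level was 1.77 with Rpb3 and 0.47 with Rpb4. They averaged 1.91 and 1.68 with Rpb3 and 0.32 and -0.10 with Rpb4. With promoter probes limited to 1000 bp from the gene start, a choice made after these values were seen, ERG7 was at -0.070 and -0.18 on the Rpb3 arrays and -0.42 and -0.40 on the Rpb4 arrays, which differed by -0.28 ± 0.089 (SE, adjusted p = 0.112). Under that limit 2 genes, ERG25 and ERG28, were called lower, where 3.95% of 5088 genes were. Leaving out either Rpb4 array ended the promoter calls. Leaving out either Rpb3 array raised them to most promoters of the set, a share not set beside that of all genes.

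Promoter and gene body did not always go together. CYB5 had the highest promoter with Rpb4, at 1.65 and 1.79 on the Rpb3 arrays and 1.33 and 1.35 on the Rpb4 arrays, while its body stood at 0.15 with Rpb4. IDI1 had a promoter mean below the median probe, at -0.025 and -0.097 on the Rpb3 arrays and -0.34 and -0.45 on the Rpb4 arrays, although its body was called above 0 with both subunits. All 4 of its promoter probes are shared with HOS3. The probe nearest IDI1, at -155 bp, averaged 0.57 with Rpb3 and -0.21 with Rpb4. ERG26 had the lowest Rpb4 promoter, at -0.46 and -0.54 on the Rpb3 arrays and -0.98 and -0.99 on the Rpb4 arrays on 1 probe, a difference of -0.48 ± 0.082 (SE, adjusted p = 0.0526). ARE2, called lower inside the gene, differed by -0.43 ± 0.079 (SE, adjusted p = 0.0563) at its 1 promoter probe.

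Along the genes, occupancy was usually higher in the downstream portion, in the set as over all genes. The measure was the mean over probes past the midpoint of the tiled span minus the mean over those before it, which 21 genes of the set had with at least 4 probes, as had 3526 genes in all. With Rpb3 the downstream portion was higher at 8 of 21, against 30.3% of all genes, and lower at 0, against 3.89%. With Rpb4 it was higher at 12 of 21, against 41.1%, and lower at 0, against 2.55%. The median was 0.17 with Rpb3 and 0.34 with Rpb4 in the set, and 0.17 and 0.24 over all genes. All 8 genes called with Rpb3 (ERG1, ERG3, ERG4, ERG9, ERG12, ERG24, ERG26 and UPC2) were also called with Rpb4, which added ERG11, MVD1, NCP1 and ARE1. Leaving out either Rpb4 array lowered the numbers called higher with Rpb3 and with Rpb4, and leaving out either Rpb3 array raised both.

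**Figure D5:**
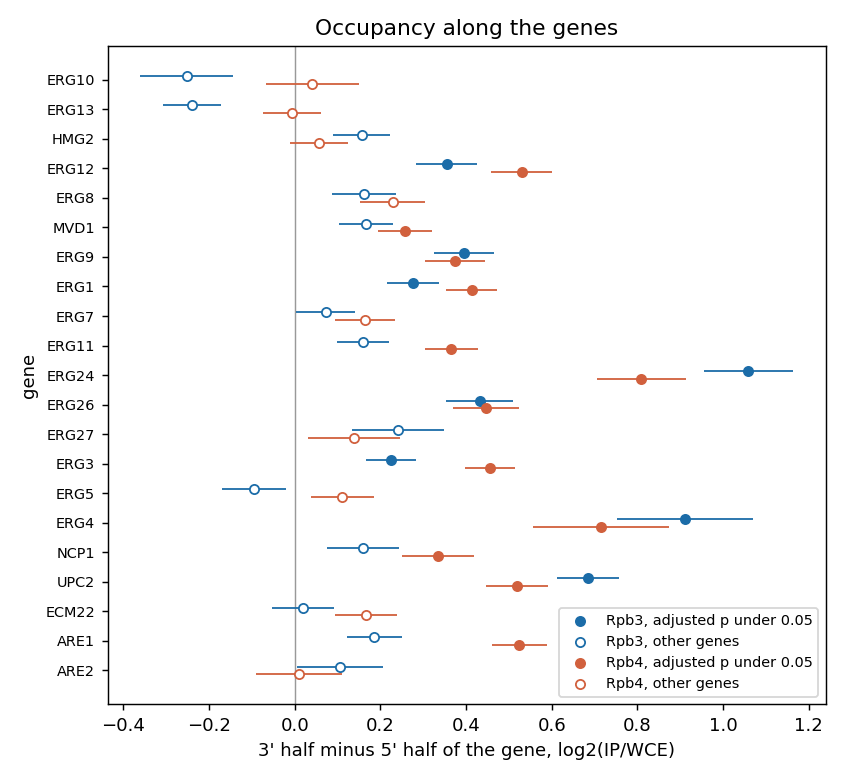
Downstream minus upstream portion of each gene in log2(IP/WCE) (horizontal axis) for the 21 genes with at least 4 inside probes (vertical axis), with the SE of the limma fit as bars and filled points where the adjusted p was under 0.05. ERG24 and ERG4 lie farthest to the right for both subunits, followed by UPC2 for Rpb3 and by ERG12, ARE1 and UPC2 for Rpb4.

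With Rpb3 the steepest gradients were at ERG24, ERG4 and UPC2, and with Rpb4 those of ERG12 and ARE1 also exceeded that of UPC2. In ERG24 it was 0.87 and 1.24 on the Rpb3 arrays and 0.81 and 0.81 on the Rpb4 arrays. In ERG4 it was 0.59 and 1.23 on the Rpb3 arrays and 0.74 and 0.69 on the Rpb4 arrays. In UPC2 it was 0.61 and 0.76 on the Rpb3 arrays and 0.58 and 0.46 on the Rpb4 arrays. In each of these 3 genes the last inside probe was the highest, and the next gene downstream was occupied above the gene itself or near it. HCH1 past ERG24 stood at 1.57 with Rpb3 and 1.53 with Rpb4, SCL1 past ERG4 at 0.71 and 0.58, and AHA1 past UPC2 at 0.48 and 0.52. In ERG24 the last probe, 1272 bp from the gene start, averaged 1.62 with Rpb3 and 1.44 with Rpb4, whereas the first, at 145 bp, averaged 0.19 and 0.16. The share of such gradients that comes from fragments of the next gene was not tested.

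The gradient itself was not called different between the subunits at any gene: limma gave 0 of 21, against 0% of 3526 genes, with a smallest adjusted p of 0.354. At an unadjusted p under 0.05 it gave 2 of the 21, ARE1 and ERG3, and 319 of all genes. In ARE1 the gradient was 0.24 and 0.14 on the Rpb3 arrays and 0.51 and 0.54 on the Rpb4 arrays. In ERG3 it was 0.24 and 0.21, and 0.45 and 0.46. Calls of a different gradient appeared in the set once either Rpb3 array was left out, and they were not set beside all genes. ERG10 and ERG13, at the head of the pathway, had negative gradients with Rpb3 that were not called, at -0.25 ± 0.11 (SE) and -0.24 ± 0.07 (SE).

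Other genes tied to the pathway were set beside the set: 40 genes of prenyl transfer, sterol transport, ester turnover and regulation. They were spread around the median probe, with 13 called above 0 and 13 below with Rpb3, and the same counts with Rpb4, near the shares of all genes given above. HMG1 was lower with Rpb4, by -0.41 ± 0.06 (SE, adjusted p = 0.046), with 0.57 and 0.54 on the Rpb3 arrays and 0.16 and 0.13 on the Rpb4 arrays. Among the 12 genes of prenyl transfer and dolichol synthesis 3 were above 0 and 4 below with either subunit, and 0 differed. RER2, a prenyltransferase of dolichol synthesis, was the highest of these, at 0.39 with Rpb3 and 0.40 with Rpb4.

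Of 17 genes of sterol transport and ester turnover, 4 were above 0 and 7 below with either subunit, and 0 differed. NPC2, a sterol-binding protein of the vacuole, stood at 0.61 and 0.79, and KES1, an oxysterol-binding protein homologue, at 0.48 and 0.46. HES1, of the same family, stood at -0.95 and -0.84, and AUS1, a transporter for sterol uptake, at -0.58 and -0.64. Of 10 regulators and degradation genes 5 were above 0 and 2 below. MOT3, a repressor of ergosterol genes, stood at 0.99 and 0.71, and ROX1, the haem-dependent repressor of hypoxic genes, at 0.86 and 0.60. HRD3 and HRD1, of the ubiquitin ligase that degrades Hmg2, stood at -0.42 and -0.27 and at -0.35 and -0.19.

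HAP1, the haem-responsive activator, was the 1 gene of the 40 called higher with Rpb4. It stood at -0.08 and 0.20 on the Rpb3 arrays and at 1.40 and 1.44 on the Rpb4 arrays, a difference of 1.36 ± 0.11 (SE, adjusted p = 0.018). Its IP signal differed by 0.85 and its WCE signal by -0.49 (adjusted p = 0.002 for WCE), so both channels entered the ratio. Over all 40 genes the median difference was 0.01, and 15 had both Rpb4 arrays below both Rpb3 arrays, against 28.7% of all genes.

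Neighbouring genes on the chromosome gave a local reference. In 62 pairs of a set gene and its next gene on either side, the neighbour was higher than the set gene with Rpb3 in 19 pairs, at 15 set genes. Of the 62 neighbours, PCL5 beside ERG7 was called lower with Rpb4, by -1.30 (adjusted p = 0.0393), and 0 were called higher. The neighbours of ARE2 differed by -0.22 (RCF2) and -0.37 (ATP23), those of ERG5 by -0.20 (BUD22) and 0.03 (SOK2), and those of IDI1 by -0.10 (MRP51) and 0.26 (HOS3). MIM2 beside ERG27 differed by -0.65 and APC9 by -0.22, and none of these 8 values passed the adjusted test. Probes of the adjacent genes therefore leaned the same way as the called gene at ARE2 and ERG27, and not on both sides at ERG5 and IDI1.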

How the data were processed

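Immunoprecipitated DNA (Cy5) and whole-cell extract DNA (Cy3) were hybridised to 4 Agilent arrays, 2 per tagged subunit, whose file names place them on 1 slide. The submitters' processing notes name Agilent Feature Extraction, version 9.1, for the images. The authors deposited foreground, background and normalized intensity values per probe and the normalized log2 ratio. In the files the normalized IP intensity equals foreground minus background minus 1 constant per array (10, 6, 7.25 and 5), and the WCE intensity was in addition multiplied by 0.690, 0.445, 0.808 and 0.927. A second deposited table holds the same log2 ratios, not centred on 0 (medians from -0.0418 to -0.00514), with scale and direction as in the array files. The genome build was not given in the sources used here.

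Of 41775 data probes, 81 to 179 per array had no positive signal and were left out. Log ratios were centred on each array's median, without loess or quantile normalization. Gene means over inside probes entered a linear model of limma 3.58.1 under R 4.3.3 (1 coefficient per subunit, no covariate, two-sided, Benjamini-Hochberg over 5490 genes at 0.05). The same model was applied to single channels, promoter probes and the downstream minus upstream portion of genes. It was tested on simulated data with shifts far larger than the differences of the set. That test does not show how well differences of the reported size are found. All 31 members could be named, and from each further gene list at most the 2 highest and 2 lowest genes that passed. The members, classes and lists were chosen with earlier results of these data known. Gene symbols were matched through RefSeq locus tags. A promoter motif search and probe sequences were not used here.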

Additional observations from a re-analysis of the deposited data

Results flagged for a closer look

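At 2 genes every Rpb3 array lay above the median probe and every Rpb4 array below it. MVD1 averaged 0.31 with Rpb3 and -0.054 with Rpb4, and ERG26 averaged 0.27 and -0.081. In the gradient along the gene, ERG10 was negative on both Rpb3 arrays, with a mean of -0.25, and positive on both Rpb4 arrays, with a mean of 0.041. At the promoter probes, 6 genes were above the median probe on both Rpb3 arrays and below it on both Rpb4 arrays. Their Rpb4 promoter means were -0.14 at HMG2, -0.077 at ERG20, -0.069 at BTS1, -0.085 at ERG1, -0.24 at ERG7 and -0.24 at ERG4. All promoter probes of ERG20 are shared with SET2, and all those of ERG4 with PDR1. Opposite signs were not tested as such. The fitted difference passed the adjusted test at the ERG20 and ERG7 promoters and at none of the other 7 values. At ERG7 the Rpb3 promoter mean was above 0 through 2 probes over 1000 bp upstream, and without them all 4 arrays were below 0. The position of 0 is the array's median probe, so a sign depends on that choice of reference.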

How the results depend on the processing

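The log2 ratios were recomputed under quantile normalization, a common median absolute deviation (MAD), 2 other centrings, background subtraction alone, excluded probes kept, medians over probes, single-gene probes, brighter probes and other class or portion limits, and without each array in turn. Of the counts and class differences, 145 of 186 recomputed values stayed within 1.5 times the reported count or within 1 SD. That tally includes values that could not move, so it does not measure stability. The excluded probes had no positive signal, so keeping them changed nothing. No member probe was listed for a further gene, so single-gene probes left the members' means as they were. A new centring cancels in the early minus late difference. Centring on 25 meiosis genes shifted the median of all genes by 0.52 with Rpb3 and 0.50 with Rpb4. It left 0 genes below with Rpb3, 31 above and 0 below with Rpb4, and 1 gene lower with Rpb4 than with Rpb3. Under it these levels changed sign: ERG12 0.47, UPC2 0.16, ECM22 0.057 and NSG1 0.47 with Rpb3, and MVD1 0.44, ERG7 0.37, ERG26 0.42, UPC2 0.27, ECM22 0.13 and NSG1 0.47 with Rpb4. Scaling by MAD left 0 genes lower with Rpb4. Quantile normalization gave 1 gene with a lower downstream portion with Rpb3, 6 genes lower in IP, and an early minus late difference of -0.48 with Rpb4. Of the 4 genes called lower, ARE2 alone was called under quantile normalization and under meiosis centring, and ARE2 and ERG5 under medians over probes. Medians over probes gave 0 genes in IP, 1 in WCE and -0.48 for early minus late with Rpb4, which was -0.34 as a mean over genes. Promoter probes within 1000 bp gave 2 promoters lower. The cause of these shifts was not tested.

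Each array was also left out in turn. Without an array of a group the remaining one is taken to vary like the other group's pair. The counts that follow are of set genes, given without the share of all genes. Without the first Rpb3 array, a larger share of all genes than of the set was called higher with Rpb4. Calls of higher genes in that run were thus no feature of the set. The number of genes lower with Rpb4 ran from 0 to 19 and the number higher from 0 to 3, where the 3 came without the first Rpb3 array. Genes above 0 ran from 22 to 26 with Rpb3 and 10 to 22 with Rpb4, and genes below 0 from 2 to 3 and 0 to 3. Genes with a higher downstream portion ran from 4 to 14 with Rpb3 and 1 to 17 with Rpb4, those with a lower one from 0 to 3 with Rpb3, and those whose gradient differed from 0 to 15. Genes lower in IP ran from 0 to 26, genes called in WCE from 0 to 3, and promoters lower from 0 to 26. For genes lower with Rpb4 on the ratio, in IP and at promoters, the highest count came without an Rpb3 array and the 0 without an Rpb4 array. Early minus late ran from -0.50 to -0.32 with Rpb3 and -0.47 to -0.39 with Rpb4. The Rpb3 level of ERG12 ran from -0.26 to 0.15 and that of ARE1 from -0.16 to 0.20 without the first or the second Rpb3 array, where each changed sign. No paired analysis was possible because the labels number no pairs between the strains. Values that were not called changed sign 32 times at 14 values, and 22 to 27 genes of the set were lower with Rpb4 under every alternative run. With 2 arrays a group the error of each gene is known poorly, so a gene that missed the threshold may differ.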
